A study of Mus musculus with 2 samples.

Results

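The Id and E protein genes are Id1, Id2 and Id3, which encode inhibitors of DNA binding, and Tcf3, Tcf4 and Tcf12, which encode the E proteins E2A, E2-2 and HEB. They were examined in chromatin immunocleavage sequencing (ChIC-seq) libraries of mouse lymphoid tissue inducer (LTi) cells made with an antibody against TCF-1, the HMG-box factor encoded by Tcf7. The rule took every island, a stretch of clustered reads, that overlapped by at least 1 bp the body of 1 of the 6 genes or the 50 kb on either side of it. It gave 31 of the 19531 islands of the deposited table, 10 at the 3 Id genes and 21 at the 3 E protein genes. No island was taken by more than 1 of the genes.

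The series has 2 libraries of C57BL/6 LTi cells, gated as lineage-negative, CD127- and CCR6-positive and free of KLRG1, NK1.1 and NKp46. In one, the cells carried Tcf7fl/fl-VavCre, in which Vav-driven Cre deletes the floxed Tcf7 in blood cells generally, and were taken from small intestinal lamina propria. In the other, Tcf7+/+ cells had been sorted out of Peyer's patches. Each group had 1 library of 500 cells, so genotype and tissue cannot be told apart and no difference has a replicate check. How many animals gave the cells is not given in the sources used here.

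The table gives reads per island of a peak library and a control library, and its header ties neither to a genotype. Values are therefore given as peak library against control library, and say nothing of a direction between genotypes. The islands held 483771 peak-library and 189291 control-library reads in all, while total library depth is unknown. A fold is peak-library reads over control-library reads times a scaling factor of 1.997. Folds and false discovery rates (FDR) of single islands are those of the authors' deposited table, and the exact 95% intervals in brackets cover counting error only. Where an interval includes 1, these reads do not place the fold on one side of 1. Nuclear islands under 200 peak-library reads all had at least 7 such reads, while control-library reads went down to 0. If islands were picked by their peak-library reads, that choice raises the folds, and the intervals do not cover it. Reads at a gene are no measure of its expression.

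E proteins are basic helix-loop-helix factors that bind E-box DNA as dimers with each other or with tissue-restricted partners. Id proteins have the helix-loop-helix but lack the basic region, so a dimer of an Id and an E protein does not bind DNA. In lymphocytes, E proteins drive the B and T cell programmes, and Id2 is required for LTi cells and the other innate lymphoid cells. Despite their symbols, Tcf3, Tcf4 and Tcf12 are not relatives of Tcf7.

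Promoter sequences are shown for the listed starts that lay inside an island, since these are the windows where reads at the genes can be set beside the DNA. The RefSeq table (GRCm38.p6, the mm10 build) held 6 windows for 4 of the 6 genes, and none was used for Id1 or Tcf4. Each line below gives the 250 bases before a listed start, 5′ to 3′ on the strand of the gene, with E-boxes of the form CAGCTG in capitals. They belong to Id2 (chr12:25096093-25096342, minus strand), Id3 (chr4:136143572-136143821, plus strand), Tcf3 (chr10:80433636-80433885, minus strand), and the outermost and the internal start of Tcf12 (chr9:72111820-72112069 and chr9:71896097-71896346, both minus strand).
Id2: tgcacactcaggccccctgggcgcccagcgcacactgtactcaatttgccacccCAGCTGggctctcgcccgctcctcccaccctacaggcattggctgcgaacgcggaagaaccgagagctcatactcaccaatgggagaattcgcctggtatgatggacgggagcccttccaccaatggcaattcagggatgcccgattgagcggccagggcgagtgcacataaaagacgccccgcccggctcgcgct
Id3: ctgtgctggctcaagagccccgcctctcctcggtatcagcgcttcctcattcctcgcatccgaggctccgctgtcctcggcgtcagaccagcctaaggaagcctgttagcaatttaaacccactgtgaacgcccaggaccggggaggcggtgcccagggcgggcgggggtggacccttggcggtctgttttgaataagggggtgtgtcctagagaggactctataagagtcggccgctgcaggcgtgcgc
Tcf3: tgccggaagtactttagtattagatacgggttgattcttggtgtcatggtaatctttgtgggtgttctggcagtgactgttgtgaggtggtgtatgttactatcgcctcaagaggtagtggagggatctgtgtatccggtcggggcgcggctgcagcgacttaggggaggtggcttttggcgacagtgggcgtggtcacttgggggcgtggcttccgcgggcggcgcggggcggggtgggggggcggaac
Tcf12 outermost start: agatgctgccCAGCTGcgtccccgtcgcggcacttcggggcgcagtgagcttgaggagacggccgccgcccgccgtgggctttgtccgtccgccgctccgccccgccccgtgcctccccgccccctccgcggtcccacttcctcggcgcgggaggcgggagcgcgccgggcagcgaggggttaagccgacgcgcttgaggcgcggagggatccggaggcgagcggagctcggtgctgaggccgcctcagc
Tcf12 internal start: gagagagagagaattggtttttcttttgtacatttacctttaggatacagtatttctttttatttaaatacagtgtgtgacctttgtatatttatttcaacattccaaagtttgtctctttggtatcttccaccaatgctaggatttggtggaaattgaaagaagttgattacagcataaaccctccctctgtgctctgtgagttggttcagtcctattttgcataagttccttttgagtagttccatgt

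The island covered all 250 bases in each of these 5 windows. The E-box CAGCTG, a palindrome, occurred once before Id2, starting 196 bases before the listed start, and once before the outermost start of Tcf12, starting 240 bases before it. It was found in 13.0% of the same 250 bases at 32851 listed starts. The E-box CAGGTG, searched on both strands (CACCTG), was in none of the 6 member windows and in 17.2% of all. One form of the core of the TCF motif, CTTTGA, searched on both strands (TCAAAG), was also in none of the 6 and in 13.8% of all. Other forms, such as CTTTGT, were not searched, so the windows cannot be said to lack a TCF site. These are matches of letters in short windows and say nothing about binding elsewhere in the islands. The windows differed in base composition: G and C made up 76.8% of the bases before the outermost start of Tcf12 and 34.8% before its internal start.

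All 6 genes had an island within the gene body, a feature of 45.7% of the 21887 protein-coding genes. The share was 22.2% among genes shorter than 5 kb, the class of the 3 Id genes, and 52.2% among genes longer than 100 kb, the class of Tcf4 and Tcf12. All 6 also had one within the body and 10 kb (54.7% of genes), within the body and 50 kb (68.3%), and a called island, with an FDR of at most 0.05, within the body and 50 kb (59.0%). Of the 31 islands, 16 (51.6%) had an FDR of 0.05 or less, against 62.5% of all islands of the table. At 1e-05 or less there were 7 (22.6%), against 20.7%, and 11 (35.5%) had a deposited fold of 2 or more, against 47.0%. These 11 include 2 islands without a control-library read, at Tcf4 and Tcf12. With a floor of 3 control-library reads, their lower bounds are 1.84 and 1.67, without counting error. With counting error of both libraries included, the exact 95% lower bounds are 1.26 and 1.12. The 47.0% also rests on deposited folds, and 1112 islands of the table have no control-library read. The 31 islands had 643 peak-library reads against 205 control-library reads, pooling to a fold of 1.57 (1.34 to 1.85). For the 19513 nuclear islands under 200 peak-library reads it was 1.62 (1.61 to 1.63). The median fold was 1.60 over the 31 islands and 1.84 over the table. Median folds, here and below, are of deposited folds and include any islands without control-library reads. The whole table pooled to 1.28, a value that includes 18 islands that are mitochondrial or have 200 or more peak-library reads, of which the 6 genes have none. So the interval of the 6 genes included the value of the nuclear islands and lay above that of the whole table, and the share called was near or below the table's at each of the 3 thresholds.

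The caller's FDR takes the control count as known. An exact binomial test conditional on the sum of both counts, two-sided and adjusted by Benjamini-Hochberg over all 19531 islands, passed none of the 31. It passed 0.302% of all islands as higher in the peak library and 0.0717% as lower. Without adjustment, 6 of the 31 had an exact p below 0.05, against 18.5% of all islands. The p-values compare the reads of these 2 libraries, not the conditions.

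**Figure D1:**
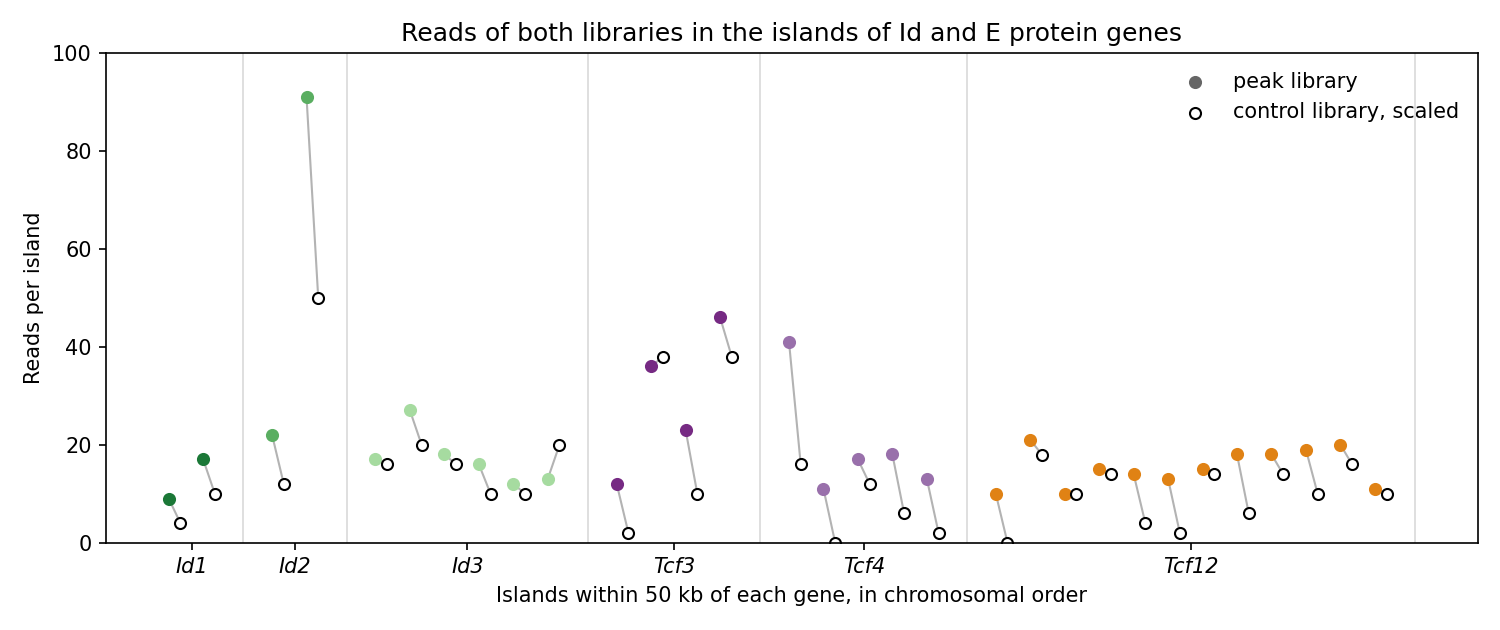
Reads per island (y axis, reads) for the 31 islands of the 6 genes in chromosomal order (x axis): filled points are the peak library, open points the control library times 1.997, and a line joins the 2 values of an island. The Id2 island with 91 peak-library reads stands above the others, and in 2 islands, at Id3 and Tcf3, the scaled control library is the higher.

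Most islands lay in gene bodies. These 21 islands had 465 against 136 reads, pooling to a fold of 1.71 (1.41 to 2.09). The 6 islands outside the bodies but within 10 kb had 125 against 48 reads and 1.30 (0.928 to 1.86). The 4 islands at 10 to 50 kb had 53 against 21 reads and 1.26 (0.750 to 2.21). These intervals overlap, and the difference between zones was not tested. The 4 distant islands lay at Id3 and Tcf3, and for each of them another protein-coding gene was nearer. Of all 31 islands, 25 had the member as their nearest protein-coding gene.

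Id2 carried the island with the most reads and the largest width of the set. Id2, on chromosome 12 at 25093799 to 25096092, is transcribed from the end with the higher coordinate. An island at 25095001 to 25102000 had 91 peak-library reads against 25 control-library reads, a fold of 1.82 (1.16 to 2.96, all above 1) at an FDR of 4.4e-07. It covered 1092 bp of the gene and ran 5908 bp upstream of the listed start, over the Id2 promoter sequence shown above. Only 61 of the nuclear islands (0.312%), this one included, had at least as many peak-library reads, and 32 (0.164%) were at least as wide. Per length it was ordinary: it had 13.0 peak-library reads per kb, and 39.4% of nuclear islands had at least that. Its adjusted p in the exact binomial test was 0.157.

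A second Id2 island, at 25091201 to 25093600, lay 199 bp beyond the other end of the gene. It had 22 against 6 reads, a fold of 1.84 (0.722 to 5.54) and an FDR of 0.00645. The folds on both sides of the gene were close in value, but the interval of the second island is too wide to show that they are alike. Pooled, the islands had a fold of 1.83 (1.22 to 2.81) from 113 against 31 reads, most of them from the first island. No island of Id2 lay at 10 to 50 kb.

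Id1, best known as a target of bone morphogenetic protein (BMP) signalling, had 2 islands with few reads. Id1 lies on chromosome 2 at 152736251 to 152737410. The island over its end with the lower coordinate, at 152735601 to 152736600, had 17 against 5 reads, a fold of 1.70 (0.603 to 5.90) and an FDR of 0.025. The other, at 152732401 to 152733600 and 2651 bp from Id1, had 9 against 2 reads, which is a fold of 2.25 (0.466 to 21.4) and an FDR of 0.0155. Both passed the caller's threshold, while the pooled fold of 1.86 had an interval of 0.786 to 5.08. Id1 had no island with 20 or more peak-library reads, the only member without one.

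Id3, which antigen receptor and EGR signals induce in lymphocytes, had the densest islands but the lowest pooled fold of the 6 genes. Its 6 islands amounted to 5.91 per 100 kb of gene and flanks, more than in 92.7% of protein-coding genes, whose median was 1.21. They had 103 against 46 reads, which pooled to a fold of 1.12 (0.785 to 1.62), and 1 of the 6 had an FDR of 0.05 or less. Id3 lies on chromosome 4 at 136143822 to 136145392. The island over its promoter sequence and body, at 136143001 to 136145000, had 27 against 10 reads, a fold of 1.35 (0.634 to 3.13) and an FDR of 0.077.

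The 2 Id3 islands closest to that one flanked it. The island at 136140201 to 136142400, mostly over the long noncoding RNA gene Gm42329, had 17 against 8 reads and a fold of 1.06 (0.435 to 2.85). The island at 136147401 to 136149800 had 18 against 8 reads and a fold of 1.13 (0.466 to 2.99). The reads of these 3 islands, 62 against 26, gave a pooled fold of 1.19 (0.744 to 1.97).

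The other Id3 islands lay on the side of E2f2, which encodes a cell cycle factor of the E2F family. The only Id3 island below the FDR threshold, at 136160001 to 136160600, had 16 against 5 reads, a fold of 1.60 (0.561 to 5.59) and an FDR of 0.0434. It was 14609 bp from Id3 and 11674 bp from E2f2. With 600 bp it was the narrowest of the 31 islands, and its 26.7 peak-library reads per kb were reached by 2.79% of nuclear islands. An island over the E2f2 promoter window, at 136171601 to 136173200, had 12 against 5 reads and a fold of 1.20 (0.394 to 4.35). One inside E2f2, at 136178801 to 136180400, had 13 against 10 reads and a fold of 0.651 (0.264 to 1.66), the lowest of the set.

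Together the 10 islands of the Id genes had 242 against 84 reads, which pooled to a fold of 1.44 (1.12 to 1.87). The 91-read island of Id2 weighed heavily in this value, which was 1.28 (0.943 to 1.76) without it. Of the 10 islands, 5 had an FDR of 0.05 or less, against 62.5% of all islands of the table.

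**Figure D2:**
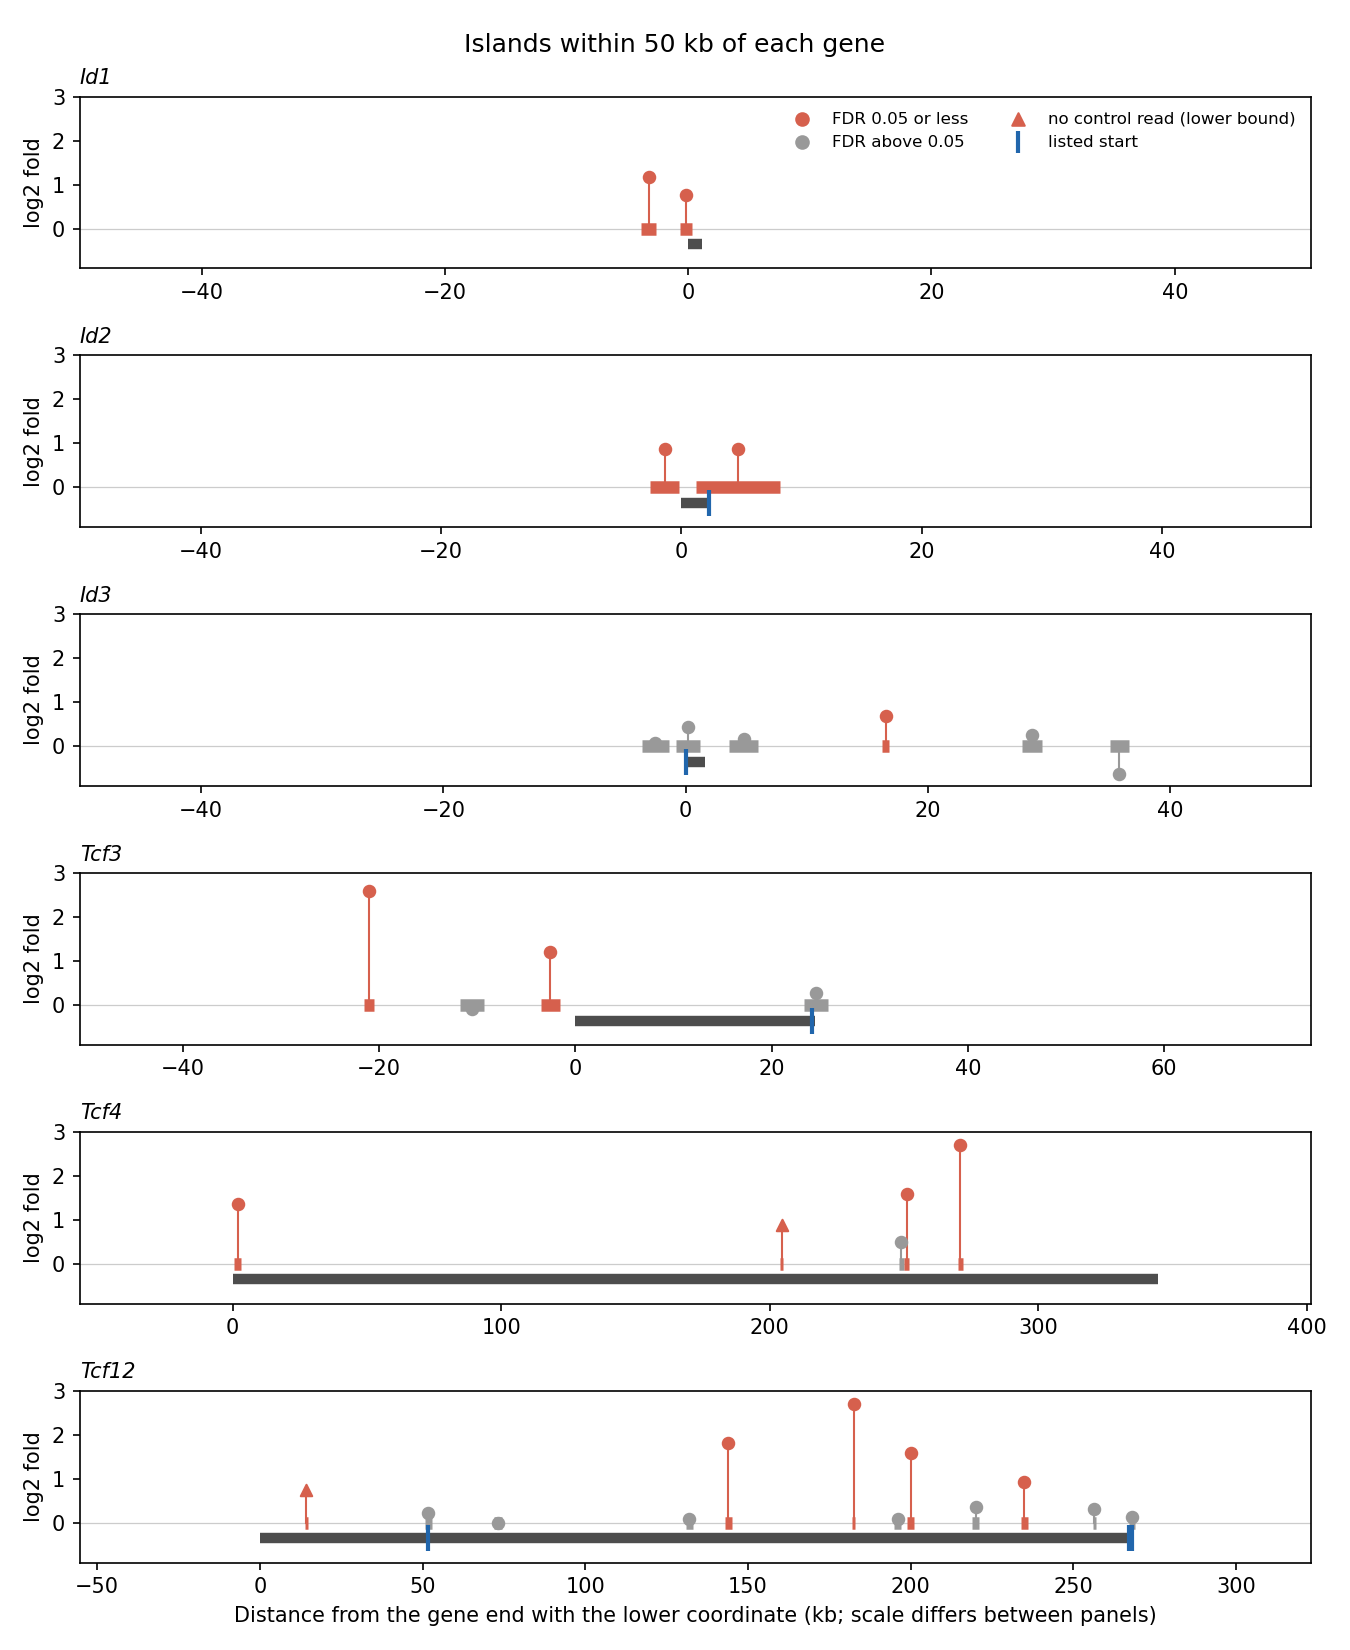
Position and log2 fold (y axis) of each island within 50 kb of the 6 genes, by distance in kb from the gene end with the lower coordinate (x axis, scale differs between panels). Thick bars at 0 are island widths, dark bars gene bodies, blue ticks listed starts and triangles islands with no control-library read, drawn at their lower bound. The Id2 panel shows the 7000 bp island over the listed start, and the Tcf4 and Tcf12 panels show islands far inside the gene bodies.

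Tcf4, which encodes E2-2, the E protein that specifies plasmacytoid dendritic cells, had the highest pooled fold of the 6 genes. It is the longest of them, on chromosome 18 at 69343429 to 69687967. Its 5 islands, all within the body, had 100 against 18 reads, which pooled to a fold of 2.78 (1.67 to 4.89, all above 1), and 4 of the 5 had an FDR of 0.05 or less. In number they were near the median gene, at 1.12 per 100 kb of gene and flanks against the median of 1.21. The island with the most reads, at 69344001 to 69346600, began 572 bp inside the end with the lower coordinate. It had 41 against 8 reads, a fold of 2.57 (1.19 to 6.34, all above 1) and an FDR of 3.3e-07, with an adjusted p of 0.176 in the exact binomial test.

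The other 4 islands of Tcf4 lay in its interior, centred 204 to 271 kb from that end. The one at 69547201 to 69548400 had 11 peak-library reads and no control-library read, which is at least 1.84-fold higher if 3 control-library reads per island are taken as the floor. With counting error of both libraries included, the exact 95% lower bound was 1.26. The island at 69613801 to 69615000 had 13 against 1 reads, a fold of 6.51 (0.978 to 277).
A neighbouring pair of islands, separated by 600 bp, differed in their calls. The one at 69593601 to 69595200 had 18 against 3 reads, a fold of 3.00 (0.877 to 15.9) and an FDR of 6.75e-05. The one at 69591601 to 69593000 had 17 against 6 reads, a fold of 1.42 (0.534 to 4.40) and an FDR of 0.0915. Their peak-library reads differed by 1 and their control-library reads by 3, so these counts do not set the 2 islands apart.

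Tcf12, which encodes HEB, the partner of E2A in developing T cells, had the most islands of the 6 genes. It lies on chromosome 9 at 71844252 to 72111893 and is transcribed from the end with the higher coordinate. All 12 islands lay in the body, with 184 against 59 reads, which pooled to a fold of 1.56 (1.16 to 2.13, all above 1). At 3.26 islands per 100 kb of gene and flanks it stood above 76.9% of protein-coding genes. Peak-library reads per island were narrowly spread, between 10 and 21, whereas control-library reads were between 0 and 9.

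Of the 12 Tcf12 islands, 5 were called, and these had 74 against 11 reads. The other 7 had 110 against 48 reads. These subsets were set by the call itself, so their pooled folds of 3.37 and 1.15 are a description. The called islands were centred at 32.3, 67.7, 85.3, 124 and 253 kb downstream of the outermost listed start. Among them, the island at 72025801 to 72027200 had 13 against 1 reads, a fold of 6.51 (0.978 to 277).
Close to the far end of Tcf12, the island at 71858201 to 71859000 had 10 reads against none, at least 1.67-fold higher against the floor of 3 control-library reads, with an exact 95% lower bound of 1.12. The island at 71987401 to 71989200 had 14 against 2 reads and a fold of 3.51 (0.805 to 31.8). The remaining called islands, at 72043201 to 72045000 and 72078601 to 72080400, had 18 against 3 and 19 against 5 reads, with folds of 3.00 (0.877 to 15.9) and 1.90 (0.687 to 6.52).

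Neither of the 2 Tcf12 islands over a listed start was called. The island at 72111601 to 72112800, over the outermost start and its G- and C-rich promoter sequence, had 11 against 5 reads and a fold of 1.10 (0.353 to 4.04). The island at 71895001 to 71897200, over the internal start, had 21 against 9 reads, the most peak-library reads of any Tcf12 island, and a fold of 1.17 (0.513 to 2.90). A further listed start between them lay in no island. The other 5 uncalled islands, in the interior, had 10 to 20 peak-library reads and folds of 1.00 to 1.29.

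Tcf3, which encodes the E2A proteins needed for B cell development, had 4 islands, and only 1 of them touched the gene. It lies on chromosome 10 at 80409541 to 80433976 among short genes. The island over its listed start, at 80432801 to 80435200, had 46 against 19 reads, a fold of 1.21 (0.697 to 2.19) and an FDR of 0.119. In peak-library reads it was second to the Id2 island among the 31, and its 19.2 peak-library reads per kb were reached by 11.2% of nuclear islands. It was high in both libraries.

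The remaining 3 islands counted for Tcf3 lay at its neighbours. The island at 80406001 to 80408000, over the promoter window of Uqcr11, which encodes a subunit of respiratory complex III, had 23 against 5 reads, a fold of 2.30 (0.857 to 7.76) and an FDR of 0.000372. The island at 80397801 to 80400200, over the promoter window of Mbd3, which encodes a subunit of the NuRD chromatin complex, had 36 against 19 reads and a fold of 0.949 (0.530 to 1.75). The island at 80388001 to 80389000, in the long noncoding RNA gene Gm30823 and 350 bp from Mex3d, had 12 against 1 reads, a fold of 6.01 (0.889 to 257) and an FDR of 1.32e-06. The pooled fold of Tcf3 was 1.33 (0.934 to 1.93) from all 4 islands and 1.21 from the one that touched the gene.

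The 21 islands of the E protein genes had 401 against 121 reads, which pooled to a fold of 1.66 (1.35 to 2.05). Of these islands 11 had an FDR of 0.05 or less, against 62.5% of all islands of the table. The interval of the E protein genes overlapped that of the Id genes, 1.12 to 1.87, and the difference was not tested. Within both families the genes varied: Id3 stood at 1.12 beside Id2 at 1.83, and Tcf3 at 1.33 beside Tcf4 at 2.78.

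**Figure D3:**
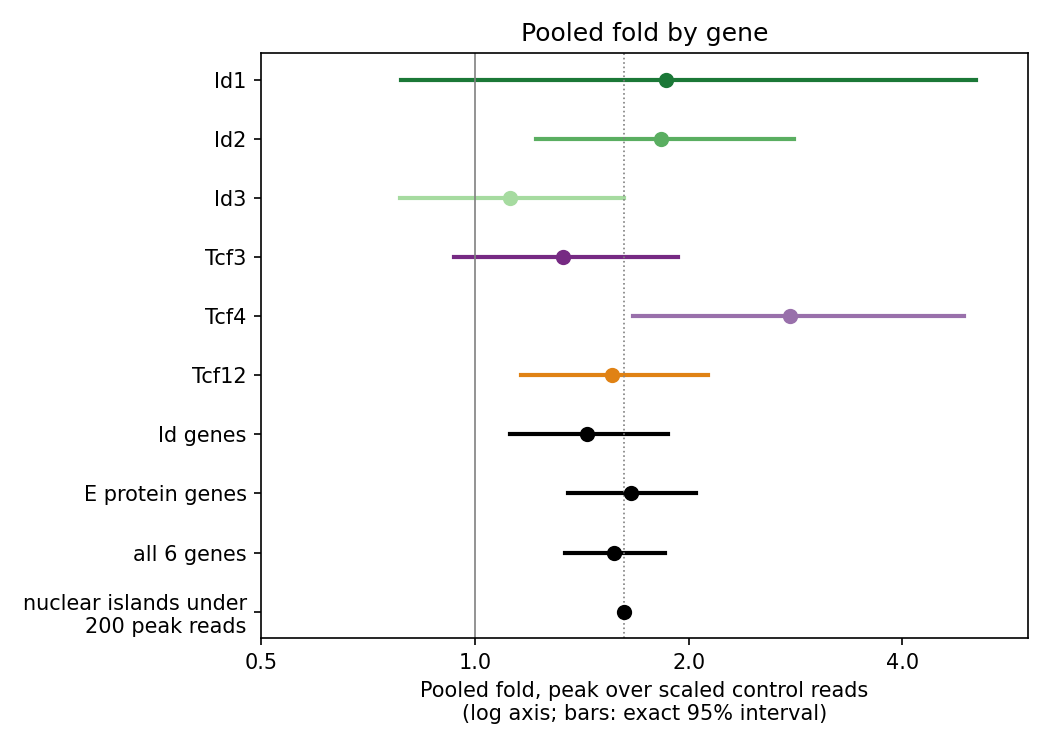
Pooled fold of peak-library over scaled control-library reads (x axis, log scale) for each gene, both families, all 6 genes and the nuclear islands under 200 peak-library reads. Bars are exact 95% intervals of counting error, the solid line marks 1 and the dotted line 1.62. Only the interval of Tcf4, 1.67 to 4.89, lies wholly above 1.62, and those of Id1, Id3 and Tcf3 include 1. Nuclear islands over no promoter window, the class in which the Tcf4 islands are counted, pooled to 1.81, inside the interval of Tcf4.

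Islands over listed starts had a lower pooled fold than the rest in the whole table, and at the 6 genes the values lay in the same order, with intervals that overlap. At the 6 genes, 8 islands overlapped the promoter window of any gene, the 300 bases around a listed start. They had 267 against 97 reads, pooling to a fold of 1.38 (1.09 to 1.76), and 2 of the 8 had an FDR of 0.05 or less. These 8 include the islands over windows of the neighbours E2f2, Mbd3 and Uqcr11. The 5 islands over a window of the member itself had 196 against 68 reads and 1.44 (1.09 to 1.93), and 1 of the 5 was called. The 23 islands over no promoter window had 376 against 108 reads and 1.74 (1.40 to 2.18), and 14 of the 23 had such an FDR. Over the table, 6790 nuclear islands under 200 peak-library reads overlapped a promoter window, with a pooled fold of 1.42 (1.41 to 1.44) and 52.8% called. The 12723 others had 1.81 (1.80 to 1.83) and 67.8%. Control-library reads moved with this: their median was 7 in islands over a promoter window and 3 in the others, and their part in the result was not tested. Since the windows for Id1 and Tcf4 were not used, their islands at a gene end stand among the 23.

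The calls at the 6 genes followed the control-library reads, which form the denominator of the fold and enter the call itself. The split below is therefore a description and not a result about these genes. All 9 islands with fewer than 5 control-library reads were called, against 7 of the 22 with 5 or more. In the nuclear islands under 200 peak-library reads these shares were 87.1% and 38.0%. Peak-library reads were the lower in the first set, with a median of 13 per island against 18 in the second.

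**Figure D4:**
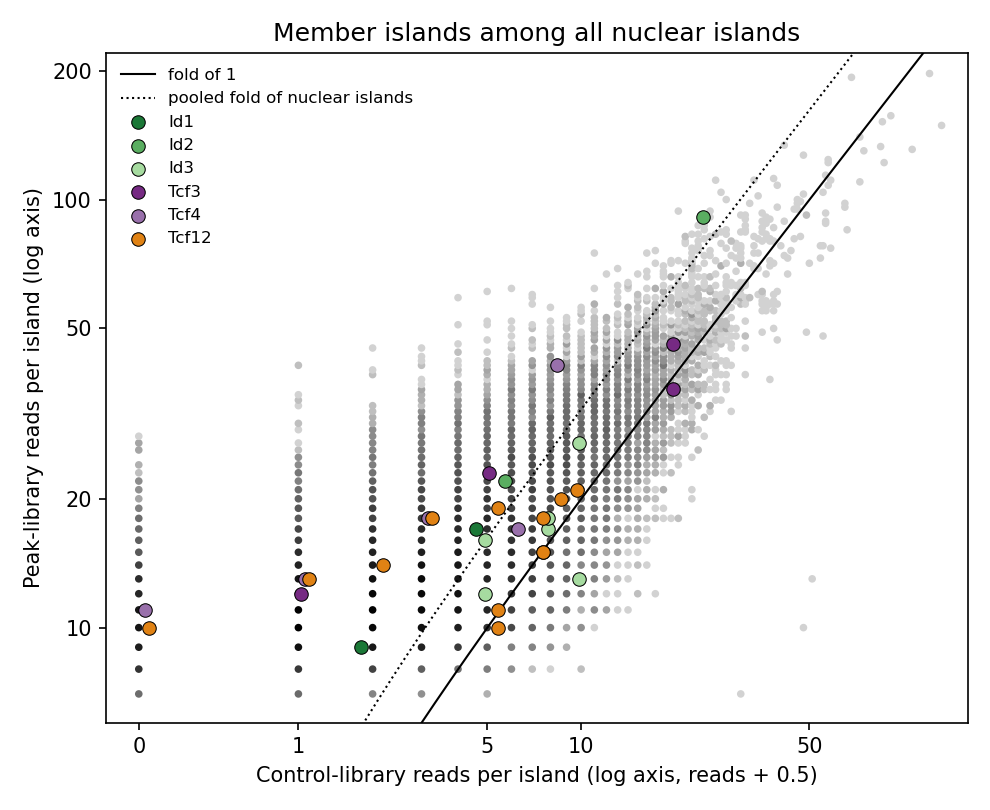
Peak-library reads (y axis, log scale) against control-library reads plus 0.5 (x axis, log scale) per island: grey points are nuclear islands under 200 peak-library reads, darker where more islands coincide, and coloured points the islands of the 6 genes, moved slightly sideways where they would coincide. The solid line is a fold of 1 and the dotted line 1.62, and the islands of the 6 genes lie within the cloud, with the Id2 island of 91 against 25 reads near its upper end.

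Other genes of the pathway were taken from 3 lists, with islands counted in the body and 10 kb, where 54.7% of protein-coding genes had any island and 40.3% a called one. Of 16 partners and cofactors of E proteins, 8 had an island and 6 had a called one. Their 15 islands, 11 of them called, had a median fold of 2.17. Over all islands of the table, 62.5% were called and the median fold was 1.84. Pooled, the 15 islands had a fold of 1.67 (1.34 to 2.10), against 1.62 for the nuclear islands under 200 peak-library reads. Ldb1, the adaptor of LIM-domain complexes that contain E proteins, had 91 against 35 reads, which pooled to a fold of 1.30 (0.873 to 1.98). Bhlhe40, a helix-loop-helix repressor, had 80 against 21 reads and 1.91 (1.17 to 3.25, all above 1 but including 1.62). The acetyltransferase gene Ep300 had 45 against 18 reads, and the Notch target gene Hes1 had 39 against 7. Id4, the remaining Id gene, had no island, and neither had Tal1.

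Of 14 genes known as E protein targets in lymphocytes, 13 had an island and 12 a called one. Of their 35 islands, 23 were called, against 62.5% of all islands, and the median fold was 2.00. Pooled, the 35 islands had a fold of 1.63 (1.41 to 1.90), against 1.62 for the nuclear islands under 200 peak-library reads. Il7r had 192 against 68 reads, which pooled to a fold of 1.41 (1.07 to 1.89), Cxcr5 122 against 41 and 1.49 (1.04 to 2.18), Foxo1 100 against 28 and 1.79 (1.17 to 2.83), and Socs3 79 against 24 and 1.65 (1.03 to 2.72). These 4 intervals lie above 1, but each includes the 1.62 of the nuclear islands. The neighbours Rag1 and Rag2, both in the list, share 1 island with 15 against 1 reads. Dntt, the terminal transferase gene, was the only one without an island.

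Of 12 genes of signals that act on Id genes, 11 had an island and 9 a called one. Of their 29 islands, 17 were called, against 62.5% of all islands, and the median fold was 1.75. Pooled, the 29 islands had a fold of 1.42 (1.23 to 1.65), against 1.62 for the nuclear islands under 200 peak-library reads. Tgfbr2, a TGF-beta receptor gene, had 179 against 56 reads, which pooled to a fold of 1.60 (1.18 to 2.20, all above 1 but including 1.62). Egr1 had 106 against 43 reads and 1.23 (0.858 to 1.80), Tgfbr1 80 against 34 and 1.18 (0.780 to 1.82), and Nfil3, whose product acts upstream of Id2 in innate lymphoid progenitors, 77 against 28 and 1.38 (0.883 to 2.21). Acvr1, a BMP receptor gene, had no island.

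Islands in the body and 10 kb, found at 54.7% of protein-coding genes, also lay at genes that mark the sorted cells and other cells. All 7 LTi markers listed (Il7r, Ccr6, Kit, Cxcr5, Lta, Ltb and Tnfsf11) had an island, as had all 4 B cell markers, 3 of 4 T cell markers, 1 of 4 myeloid and 2 of 4 epithelial markers. The LTi marker islands had 833 against 235 reads, those of the B cell markers (Cd79a, Cd79b, Ms4a1 and Pax5) 149 against 50, and those of the T cell markers (Cd3d, Cd3e, Cd3g and Bcl11b) 96 against 36. Of the LTi marker reads, 129 against 7 were at Kit. The neighbours Lta and Ltb share islands, as do Cd3d and Cd3g, so these genes are not separate hits. The single myeloid island, at Spi1, had 20 against 2 reads, with none at Lyz2, Csf1r or Itgam, and the epithelial islands, at Krt8 and Cdh1, had 25 against 7, with none at Epcam or Vil1. Called were 26 of 34 LTi, 3 of 9 B cell, 1 of 4 T cell, 1 of 1 myeloid and 1 of 2 epithelial marker islands, against 62.5% of all islands. E proteins are also active in B and T cells, and the part of such cells in the reads at Tcf3, Tcf4 and Tcf12 was not tested.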

How the data were processed

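The submitters' processing notes name Bowtie2 2.4.2, SICER 2.0 and the mm10 build for the 2 ChIC-seq libraries. The caller's window, gap and duplicate settings are not given. The read counts were deposited by the authors as whole reads per island, without scaling, in 2 columns that name no sample. Fold ratios, p-values and FDR values were deposited by the authors per island. Recomputation gave the same scaling factor, 1.997, for all 18419 islands with control-library reads, and 1997 islands have an FDR of 1. For the 1112 islands without control-library reads, a floor of 3 reads gave a lower bound that leaves out counting error. Positions count from 1.

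Genes and promoter windows came from RefSeq (GRCm38.p6), and 6 of 6 members matched by symbol. Islands were sorted into gene body, within 10 kb and 10 to 50 kb. Intervals are exact conditional binomial (Clopper-Pearson, 95%, scipy 1.17.1), tested on simulated data. The simulation did not pick islands by their peak-library reads, so it does not check the intervals under such a choice. All 6 genes were named, with every island having an FDR of 0.05 or less or at least 20 peak-library reads. From each further list up to 4 genes with the most peak-library reads and the first 2 without an island were named. The islands over promoter windows, and the split at 5 control-library reads, were looked at after the data were seen. Protein sequences were not used here, and 1 listed marker gene is not reported here. The members and lists were chosen with earlier results of these data known.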

Additional observations from a re-analysis of the deposited data

How the results depend on the processing

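For all 6 genes together, the Id genes, Id3, Tcf3 and Tcf12, the side of 1 on which the pooled fold lies depends on the scaling. With the totals of the table set equal, the pooled fold was 1.23 (1.05 to 1.44) for all 6 genes and 1.30 (1.06 to 1.60) for the E protein genes. The intervals of the Id genes at 1.13 (0.876 to 1.46), Id2 at 1.43 (0.951 to 2.20) and Tcf12 at 1.22 (0.906 to 1.67) then included 1. The totals set equal here include the 18 islands that are mitochondrial or have 200 or more peak-library reads, of which the 6 genes have none. Without scaling the pooled fold was 3.14 for all 6 genes, 2.88 for the Id genes and 3.31 for the E protein genes. With nuclear islands under 200 peak-library reads set to 1, it was 0.969 for all 6 genes, 0.890 for the Id genes, 1.02 for the E protein genes and 0.963 for Tcf12. This setting divides every fold by 1.62. Id3 had 0.876 with totals set equal and 0.692 with nuclear islands set to 1, and Tcf3 had 1.04 and 0.821. Tcf4 had 2.17 (1.31 to 3.82) and 1.72 (1.03 to 3.01), and alone kept its whole interval above 1 at each scaling. Of the 31 islands, 16 were called at an FDR of 0.05, 7 at 1e-05 and 0 by the exact binomial test, which takes the error of the control count into account (6 at an unadjusted p below 0.05). An overlap of at least 0.5 of the island removed none of the 31 islands, so it could not change a value. Further settings were gene body alone, the 10 kb zone, nearest genes only, at least 20 peak-library reads and leaving out the island with most reads. These left the pooled folds of all 6 genes and of both families within their intervals. So did, for all 6 genes, leaving out each gene or the islands over promoter windows, which were chosen after the data were seen; the range over left-out genes was 1.45 (without Tcf4) to 1.70 (without Id3). No paired analysis was possible because each group has 1 library and the columns carry no replicate number. With a median of 4 control-library reads per island, single folds are loosely bounded.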
